A study of Mus musculus with 18 samples.

Results

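Transcripts of the TGF-beta ligands, their receptors and the latent TGF-beta binding proteins were examined in MEFs, fibroblasts cultured from mouse embryos. The 10 genes Tgfb1, Tgfb2, Tgfb3, Tgfbr1, Tgfbr2, Tgfbr3, Ltbp1, Ltbp2, Ltbp3 and Ltbp4 were taken by symbol from the 55487 genes of the count table. All 10 were in it, and all 10 passed the filter on low counts that left 13865 genes to test. Total RNA was sequenced after 24 h in growth medium with 0 µM (vehicle), 10 µM or 30 µM uracil, the base that uridine phosphorylase-1 releases from uridine. There were 6 libraries per dose, and the titles give each a number from 1 to 6. The labels give no strain, genotype or embryonic age and no agent other than uracil, and they do not say that a number marks 1 embryo or 1 culture day. The study calls the numbers biological repeats. Where the libraries do not come from separate cultures, the p-values below measure technical spread only.

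TGF-beta is secreted by fibroblasts and many other cells in a latent form, in which the cleaved propeptide stays wrapped around the growth factor. The propeptide is usually linked to a latent TGF-beta binding protein (LTBP), which ties the complex to fibrillin and fibronectin in the extracellular matrix until integrins or proteases release it. The freed ligand binds the type II receptor, which phosphorylates the type I receptor, and this in turn phosphorylates Smad2 and Smad3. In fibroblasts the pathway is known for raising collagen, elastin and other matrix genes.

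Counts assigned to genes ranged from 11.6 M to 20.8 M per library in 16 of the 18 libraries. They were 3.96 M in vehicle number 1 and 7.39 M in 30 µM number 6. These 2 libraries also had most unaligned read pairs, 54.2% (95% Wilson interval 54.19% to 54.24%) and 37.9% (37.84% to 37.88%), followed by 10 µM number 6 with 5.24% (5.235% to 5.252%), against 1.72% to 3.59% in the other 15. The intervals cover counting error only. For the MEFs, the methods of the study leave out a vehicle sample and a sample of the highest dose because human RNA was found in them. The labels do not name these samples. The 2 libraries with most unaligned pairs belong to the same arms, vehicle and 30 µM, and values over all libraries include them. Every library was used in the main test, and the log2 fold changes at 30 µM and the test of number are also given for the 15 libraries. The identity as fibroblasts was checked with 10 markers, whose summed level was 6431 to 8443 CPM (counts scaled to a library size of 1 M by the trimmed mean of M-values, TMM). Endothelial markers summed to 7.45 to 12.03 CPM, macrophage markers to 1.39 to 6.15 CPM and muscle markers to 0.46 to 1.73 CPM, with the muscle factor Myod1 at 0 counts in all 18 libraries.

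The 10 genes spanned more than an order of magnitude in level per length, and within each role 1 or 2 genes made up most of the transcripts. Among the ligands Tgfb3 held 83.3% ± 2.96 (SD, n = 15 libraries) of the level per kb of exon, Tgfb2 11.3% ± 2.75 and Tgfb1, the ligand best known from immune cells and platelets, 5.39% ± 0.729. Among the receptors the type II receptor Tgfbr2 held 65.8% ± 1.51, the type I receptor Tgfbr1 18.04% ± 1.12 and the co-receptor betaglycan, encoded by Tgfbr3, 16.1% ± 1.51. Among the binding proteins Ltbp1 and Ltbp2 held similar shares, 43.5% ± 2.28 and 44.3% ± 3.82, while Ltbp3 held 7.81% ± 1.10 and Ltbp4 4.42% ± 0.879. LTBP2 differs from the others in that it does not bind latent TGF-beta.

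Over all 18 libraries, the mean level in CPM per kb of exon (RPKM) was 69.5 ± 4.39 (SD) for Ltbp1 and 68.7 ± 9.24 for Ltbp2. Ltbp1 was above Ltbp2 in 7 of 18 libraries, namely vehicle number 1 and every library of numbers 5 and 6. The order of these neighbours thus differed between numbers. Tgfb3 followed with 38.9 ± 4.83, below Ltbp2 in all 18 libraries, and Tgfbr2 with 25.3 ± 1.96, below Tgfb3 in 17. Ltbp3 had 15.1 ± 7.94 and Ltbp4 7.89 ± 3.22, with Ltbp3 the higher in all 18 libraries. The next 3 genes could not be ordered, since Ltbp4 was above Tgfbr1 (6.65 ± 0.763) in 11 libraries, Tgfbr1 above Tgfbr3 (6.58 ± 1.74) in 13 and Tgfbr3 above Tgfb2 (5.60 ± 1.83) in 12. Tgfb1 was lowest at 2.99 ± 1.13, below Tgfb2 in 17 libraries. Set among the 13865 genes tested, Ltbp1 was at or above 96.5% and Tgfb1 at or above 41.8% of them.

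**Figure D1:**
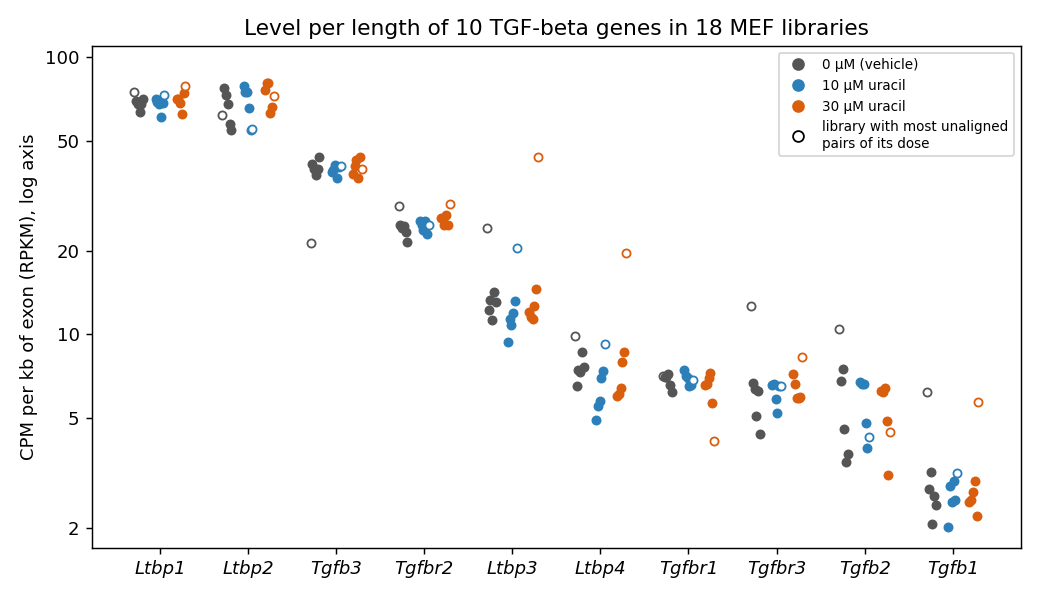
Level per length (CPM per kb of exon, log axis) of each gene in each of the 18 libraries, coloured by dose, with open circles for the library with most unaligned pairs of each dose. Ltbp1 and Ltbp2 lie together at the top near 69 RPKM, and the open circles stand away from their dose for Tgfb3, Ltbp3, Ltbp4, Tgfbr3, Tgfb2 and Tgfb1.

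Uracil was not seen to change any of the 10 genes. By edgeR's quasi-likelihood test with Benjamini-Hochberg adjustment over all genes, 0 of 10 passed an adjusted p of 0.05 at 10 µM against vehicle, as did 0% of all genes, and 0 of 10 had an unadjusted p under 0.05, against 0.692% of all genes. At 30 µM against vehicle the counts were again 0 of 10 adjusted (0% of all genes) and 0 of 10 unadjusted (4.29% of all genes). For 30 µM against 10 µM they were 0 of 10 (0%) and 0 of 10 (2.33%), for any difference among the 3 doses 0 of 10 (0%) and 0 of 10 (1.53%), and for a slope on dose 0 of 10 (0%) and 0 of 10 (5.46%). The smallest adjusted p of any of the 10 genes in these tests was 0.809, for the slope of Tgfbr2. DESeq2 also called 0 of 10 and 0 of all genes in each test, with 0 of 10 unadjusted beside 91 to 844 of the 13865 genes. Voom with quality weights also called 0 of 10, with 1 of 10 unadjusted at 10 µM (624 of all genes) and 1 at 30 µM (892). It had 2 of 10 unadjusted for the slope (862) and 0 in the other dose tests (415 and 594). The median log2 difference of the 10 genes was -0.07 at 10 µM and 0.07 at 30 µM against vehicle, beside 0.01 over all genes in both. The median size of the difference, regardless of sign, was 0.10 and 0.12, beside 0.06 and 0.09 over all genes. The 2 contrasts share the vehicle libraries.

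**Figure D2:**
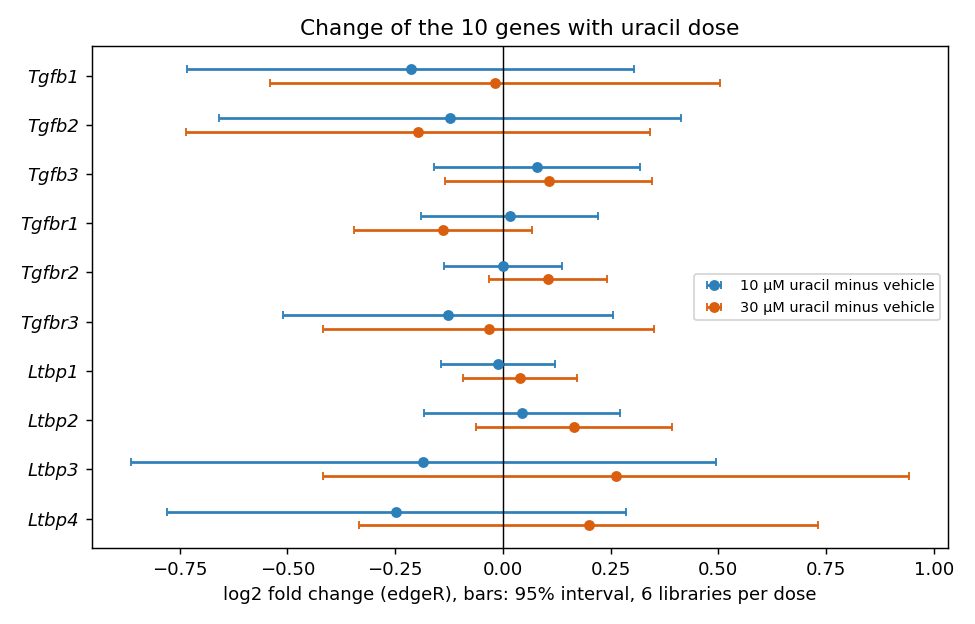
Log2 fold change of each gene at 10 µM and 30 µM uracil against vehicle (edgeR, points) with its 95% interval (bars), 6 libraries per dose. All 20 intervals include 0, and those of Ltbp3, Ltbp4, Tgfb1 and Tgfb2 are the widest.

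Among the ligands, Tgfb3 (ENSMUSG00000021253, GRCm39 chromosome 12, 86102756 to 86126301, minus strand) was the most abundant. Its lowest, median and highest CPM were 112, 206 and 228 with vehicle, 192, 208 and 212 at 10 µM and 191, 208 and 227 at 30 µM. All 3 doses overlapped, and vehicle number 1 lay alone at 112 CPM, below the 17 others. The log2 fold change at 30 µM against vehicle was 0.11 ± 0.11 (SE, 95% interval -0.13 to 0.35, adjusted p = 0.949), and in the 15 libraries it was -0.01 ± 0.053. Tgfb3 shares 179 bp of exon with Ttll5 on the other strand, and since the strand setting of the counting is not given in the sources used here, reads there could not be told apart.

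Tgfb2 (ENSMUSG00000039239, chromosome 1, 186354985 to 186438294, minus strand), a ligand that needs betaglycan to bind the type II receptor well, spread more widely. It reached 21.8, 35.5 and 65.7 CPM (lowest, median, highest) with vehicle, 24.4, 35.8 and 42.2 at 10 µM and 19.4, 34.6 and 40.1 at 30 µM. The medians of the 3 doses lay close together beside the spread within each dose. Against vehicle, log2 fold changes were -0.12 ± 0.25 for 10 µM (interval -0.66 to 0.41, adjusted p = 1.00) and -0.20 ± 0.26 for 30 µM (-0.74 to 0.34, adjusted p = 0.963), and both turned positive in the 15 libraries, 0.13 ± 0.26 and 0.02 ± 0.26. Tgfb1 (ENSMUSG00000002603, chromosome 7, 25386390 to 25404506, plus strand) was at 10.5, 13.7 and 31.5 CPM with vehicle, 10.3, 13.6 and 16.1 at 10 µM and 11.3, 13.2 and 29.1 at 30 µM, so the doses overlapped. Its log2 fold change at 30 µM was -0.02 ± 0.25 (-0.54 to 0.50, adjusted p = 1.00), and -0.03 ± 0.12 in the 15 libraries.

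Among the receptors, Tgfbr2 (ENSMUSG00000032440, chromosome 9, 115913361 to 116004800, minus strand) was steady from library to library. It was at 189, 215 and 255 CPM with vehicle, 202, 218 and 226 at 10 µM and 218, 231 and 261 at 30 µM. The doses overlapped, with the 30 µM libraries toward the upper end. Its change on the log2 scale was 0.00 ± 0.065 with 10 µM and 0.10 ± 0.065 with 30 µM (-0.03 to 0.24, adjusted p = 0.931). At 30 µM against 10 µM it was 0.10 ± 0.065 (adjusted p = 1.00), with 30 µM the higher in 6 of 6 numbers. Ltbp3 and Ltbp4 also had 30 µM the higher in 6 of 6, and the share of all genes was not counted. For Tgfbr2 a two-sided exact permutation test of the mean CPM gave p = 0.0390 for this comparison, unadjusted. It was the only p under 0.05 of 30 such tests over the 10 genes. In the 15 libraries Tgfbr2 was 0.11 ± 0.045 higher at 30 µM than with vehicle (0.02 to 0.21, unadjusted p = 0.0241 by edgeR's quasi-likelihood test, adjusted p = 0.944).

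Tgfbr1 (ENSMUSG00000007613, chromosome 4, 47353134 to 47414931, plus strand), the signalling type I receptor, was at 41.1, 46.5 and 47.5 CPM with vehicle, 43.3, 45.9 and 49.4 at 10 µM and 27.2, 43.6 and 48.0 at 30 µM. The 27.2 CPM was 30 µM number 6, below all other libraries. At 30 µM its log2 fold change was -0.14 ± 0.099 (-0.35 to 0.07, adjusted p = 0.934), and -0.05 ± 0.064 in the 15 libraries. Tgfbr3 (ENSMUSG00000029287, chromosome 5, 107249402 to 107437623, minus strand) ranged from 29.9 to 86.7 CPM with vehicle, 35.6 to 45.4 CPM at 10 µM and 40.3 to 56.6 CPM at 30 µM, with log2 fold changes of -0.13 ± 0.18 and -0.03 ± 0.18, and of 0.09 ± 0.10 and 0.12 ± 0.10 in the 15 libraries.

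Among the binding proteins, Ltbp1 (ENSMUSG00000001870, chromosome 17, 75312519 to 75699507, plus strand) had the narrowest range relative to its level. It was at 681 to 802 CPM with vehicle, 654 to 784 CPM at 10 µM and 670 to 845 CPM at 30 µM. On the log2 scale it differed from vehicle by -0.01 ± 0.063 with 10 µM and 0.04 ± 0.063 with 30 µM (-0.09 to 0.17), and in the 15 libraries by -0.01 ± 0.050 and 0.02 ± 0.050. Ltbp2 (ENSMUSG00000002020, chromosome 12, 84829986 to 84923306, minus strand) was at 446, 530 and 633 CPM with vehicle, 447, 576 and 644 at 10 µM and 514, 611 and 662 at 30 µM. The doses overlapped across most of their range. At 30 µM its log2 fold change was 0.16 ± 0.11 (-0.06 to 0.39, adjusted p = 0.933), and 0.14 ± 0.11 in the 15 libraries. With all libraries, 30 µM was the higher in 5 of 6 numbers, as it was for Tgfbr2.

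Ltbp3 (ENSMUSG00000024940, chromosome 19, 5790932 to 5808669, plus strand), a carrier of latent TGF-beta known from bone and teeth, was at 106, 124 and 227 CPM with vehicle, 88.3, 109 and 192 at 10 µM and 107, 116 and 408 at 30 µM. The highest value of each dose was its library with most unaligned pairs. The log2 fold change at 30 µM was 0.26 ± 0.32 (-0.42 to 0.94, adjusted p = 0.959) in all libraries and -0.05 ± 0.087 in the 15.

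Ltbp4 (ENSMUSG00000040488, chromosome 7, 27004086 to 27037117, minus strand), which is known for elastic fibre assembly, was at 49.3, 56.8 and 74.3 CPM with vehicle, 37.1, 48.0 and 69.7 at 10 µM and 45.0, 54.1 and 148 at 30 µM. On the log2 scale the difference from vehicle was -0.25 ± 0.25 with 10 µM (adjusted p = 1.00) and 0.20 ± 0.25 with 30 µM (adjusted p = 0.961). In the 15 libraries it was -0.30 ± 0.13 at 10 µM (-0.57 to -0.04, unadjusted p = 0.0279 by edgeR's quasi-likelihood test, adjusted p = 0.998) and -0.11 ± 0.12 at 30 µM. Number by number among those libraries, the 10 µM library was below vehicle in 4 of 4. It was below 30 µM in 5 of 5, as it was for Tgfbr2 and Ltbp3. The 10 µM library left out, number 6, was above vehicle number 6, at 69.7 CPM beside 57.6 CPM. Without only the 2 libraries with most unaligned pairs, the difference at 10 µM was -0.18 ± 0.15 (unadjusted p = 0.241 by edgeR's quasi-likelihood test). Its size thus depended on leaving out 10 µM number 6. The lowest and median values of Ltbp4 were smallest at the middle dose and not at the highest, and no contrast passed the adjusted threshold.

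A few libraries carried much of the spread of the 10 genes, and their departures were not alike. Vehicle number 1 lay outside the other 5 vehicle libraries for 8 of 10 genes, above them for 7 and below them for Tgfb3. Its Tgfb1 was 2.38 times the mean of the others, Tgfbr3 2.20 times, Tgfb2 2.02 times, Ltbp3 1.89 times and Tgfb3 0.531 times, so that Tgfb3 held 56.2% of the ligand level there. The 30 µM number 6 library was outside for 7 of 10 genes, with Ltbp3 at 3.50 times, Ltbp4 at 2.80 times, Tgfb1 at 2.22 times and Tgfbr1 at 0.623 times. The 10 µM number 6 library was above the others for 4 of 10, with Ltbp3 at 1.81 times and Ltbp4 at 1.51 times. Ltbp2 stayed within the range of its dose in all 3. How many of all genes tested lay outside in these libraries was not counted. The counts therefore describe the libraries and cannot be read as a trait of the 10 genes. The share of unaligned pairs was high in the same libraries, and its part in these values was not tested.

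**Figure D3:**
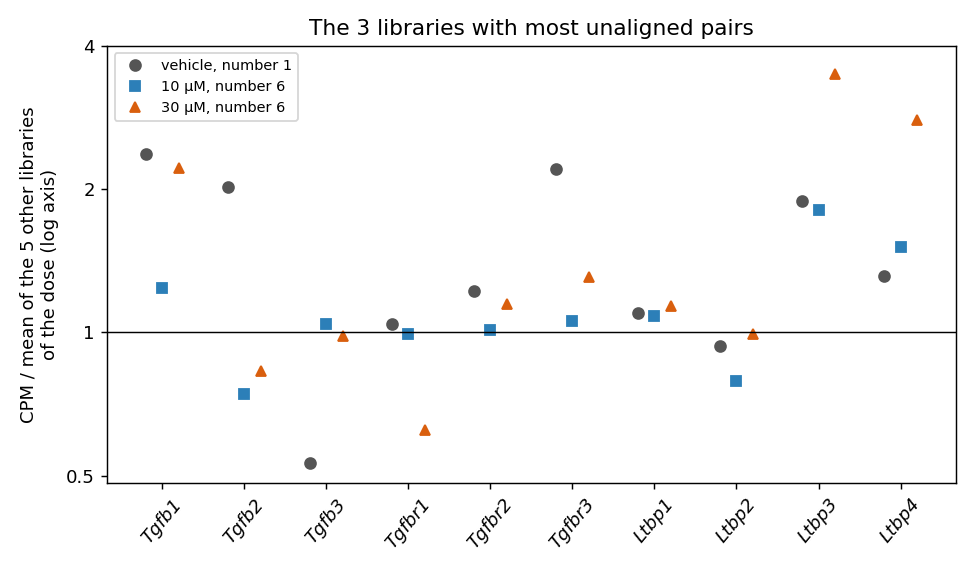
CPM of each gene in the 3 libraries with most unaligned pairs, divided by the mean of the other 5 libraries of the same dose (log axis, 1 means no difference). Ltbp3 is above 1 in all 3 libraries, from 1.81 to 3.50, while Tgfb3 is low in vehicle number 1 alone, at 0.531.

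Other genes of the pathway were followed through 3 lists written from general knowledge, and chosen with earlier results of these data known. Of the storage and activation genes 17 of 20 passed the filter, and 0 of 17 passed the threshold in any dose contrast. The 2 with the smallest p at 30 µM against vehicle were Bmp1, a protease of procollagens, at 0.15 ± 0.077 and Emilin1, a matrix protein that restrains TGF-beta processing, at 0.18 ± 0.10. All 26 signalling genes and regulators were tested and 0 passed. The ubiquitin ligase Wwp1 (-0.21 ± 0.12) and the Smad anchor Zfyve9 (-0.11 ± 0.069) had the smallest p. All 25 target genes were tested and 0 passed, with Snai2 at -0.55 ± 0.25 (unadjusted p = 0.0421, adjusted p = 0.931 by edgeR) and Snai1 at -0.24 ± 0.16 at 30 µM, both transcriptional repressors. The median log2 difference at 30 µM was 0.04 for storage, -0.05 for signalling and 0.03 for targets, beside 0.01 over all genes.

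The replicate number separated some of the 10 genes where the dose did not. In an additive model with dose, 2 of 10 passed an adjusted p of 0.05 for any difference among the 6 numbers, Tgfb2 (adjusted p = 0.000279) and Ltbp2 (adjusted p = 0.0394), while 12.6% of all genes did so. At an unadjusted p under 0.05 there were 4 of 10, with Ltbp1 (unadjusted p = 0.0337, adjusted p = 0.150 by edgeR) and Ltbp4 (0.0318 and 0.145) added, against 26.4% of all genes. In the 15 libraries 7 of 10 passed, namely Tgfb2, Tgfb3, Tgfbr3, Ltbp1, Ltbp2, Ltbp3 and Ltbp4, against 20.8% of all genes. Tgfbr2 (adjusted p = 0.0604), Tgfbr1 (0.240) and Tgfb1 (0.596) did not. In the 15 libraries number 6 was 1 library. Without only the 2 libraries with most unaligned pairs, 4 of 10 passed, against 23.6% of all genes. The test was edgeR's quasi-likelihood F test, which has no direction.

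Of the 10 genes Tgfb2 had the smallest p for number. In the 15 libraries its mean CPM was 40.6 in number 1 (n = 2), 41.0 in number 2, 42.8 in number 3, 29.6 in number 4, 21.9 in number 5 (n = 3 each) and 23.1 in number 6 (n = 1). Numbers 1 to 3 spanned 38.9 to 46.9 CPM and numbers 4 to 6 spanned 19.4 to 30.4 CPM, without overlap. This split was read from the values after they were seen and was not tested. Of the 10 genes, Tgfb2 and Ltbp2 were the 2 without overlap in this split, while 7.49% of all genes tested had none. Ltbp2 was at 601 to 662 CPM in numbers 1 to 3 and at 446 to 554 CPM in numbers 4 to 6.

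Ltbp4 ran the other way, with means of 41.0, 45.7, 49.3, 55.8, 62.0 and 57.6 CPM in numbers 1 to 6. Tgfbr3 was at 47.1 CPM in number 1 and 29.9 CPM in number 6, with the other numbers between. Ltbp1 was lowest in number 4, at 669 CPM, and highest in number 1, at 761 CPM. The largest mean was 1.96 times the smallest for Tgfb2 and 1.58 times for Tgfbr3. It was 1.51 times for Ltbp4, 1.42 times for Ltbp2 and 1.13 to 1.30 times for the 6 others. Number 6 of the 15 libraries was vehicle number 6 alone. It gave the smallest mean of Tgfbr3, Ltbp2, Tgfbr1 and Tgfbr2 and the largest of Tgfb3. The number 6 libraries left out had Tgfbr3 at 44.4 CPM (10 µM) and 56.6 CPM (30 µM).

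**Figure D4:**
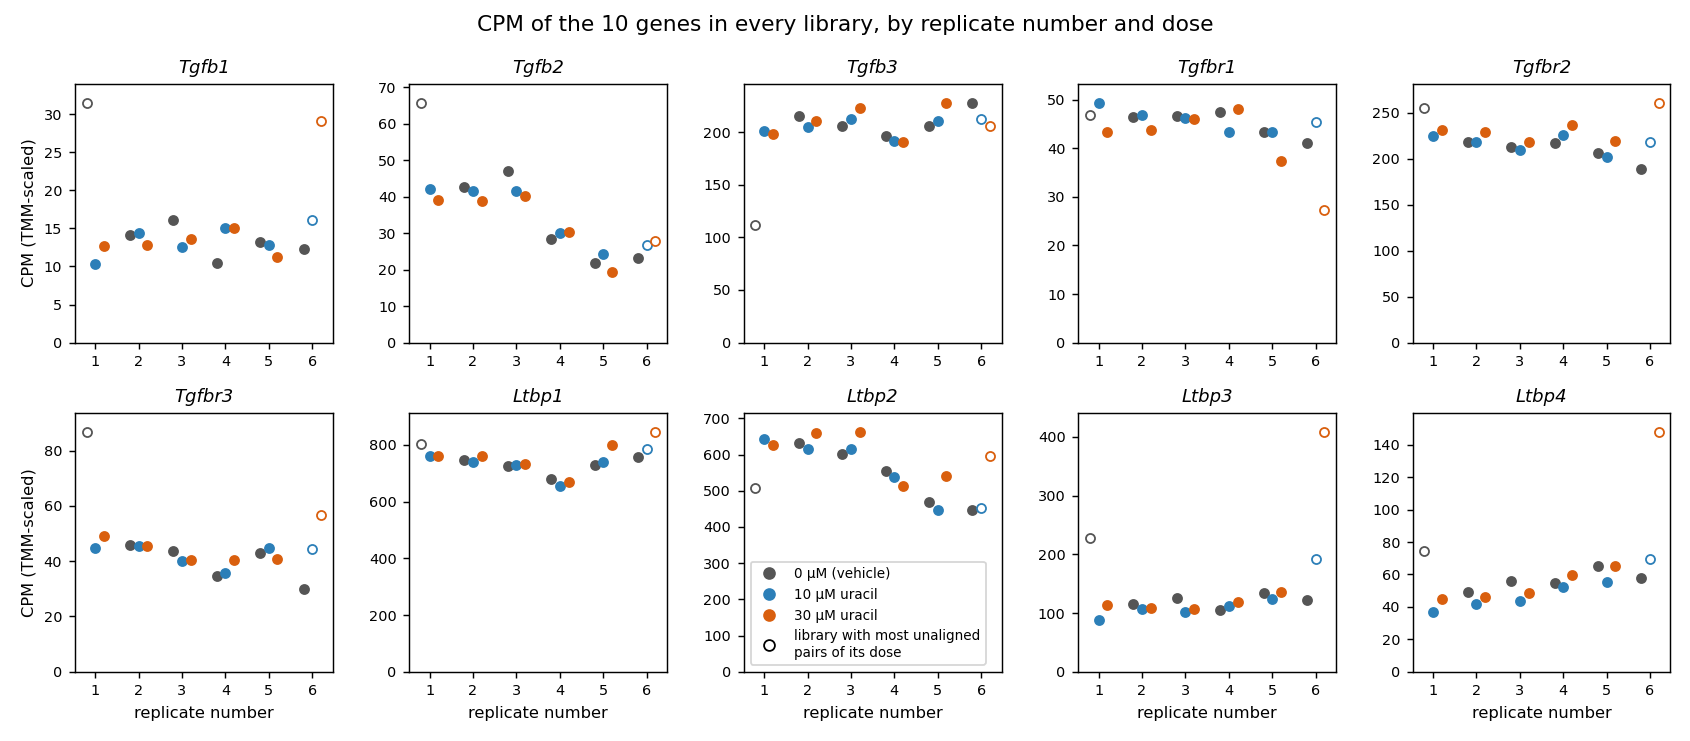
CPM of each gene in every library against replicate number, coloured by dose, with open circles for the 3 libraries with most unaligned pairs. Filled points of Tgfb2 and Ltbp2 are higher in numbers 1 to 3 than in numbers 4 to 6, those of Ltbp4 tend the other way, and the doses lie close together within most numbers.

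Type II sums of squares of log2 CPM gave the same picture as a description. The number went with 86.9% of the variance of Tgfb2, 79.3% of that of Ltbp1 and 63.8% of that of Ltbp2 over 18 libraries, beside a median of 40.8% over all genes. The dose went with 21.2% for Tgfbr2 and 19.4% for Tgfbr1, the largest of the 10 genes, beside a median of 7.91%. In the 15 libraries the number share was 93.9% for Tgfb2 and 30.9% for Tgfb1, beside 49.0%, and the largest dose share was that of Ltbp4, 18.8%, beside 7.82%.

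**Figure D5:**
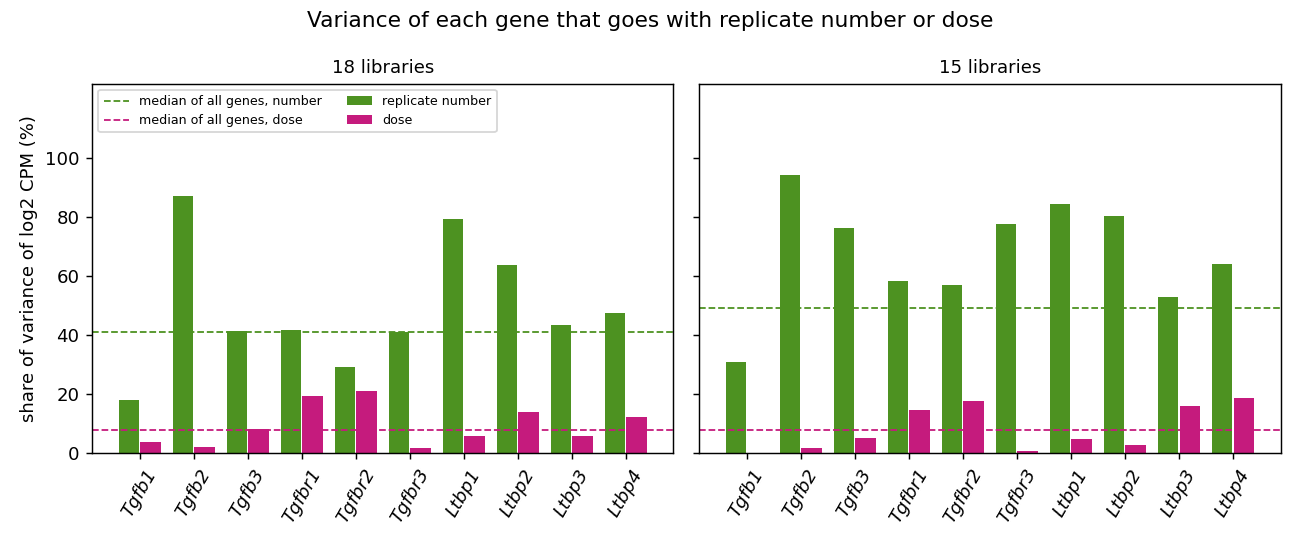
Share of the variance of log2 CPM that goes with replicate number (green) or dose (magenta) for each gene, in 18 and in 15 libraries, with dashed lines for the median of all genes. The number share of Tgfb2 is 86.9% and 93.9%, and no dose share passes 21.2%.

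Markers of mesothelial cells moved with the numbers. The 9 mesothelial markers summed to 120 to 178 CPM in numbers 1 to 3 and to 285 to 411 CPM in numbers 4 to 6, and 6 of the 7 that could be tested passed the threshold for number, beside 12.6% of all genes. The mesothelial antigen Msln had means of 29.8 to 34.8 CPM in numbers 1 to 3 and 73.9 to 105 CPM in numbers 4 to 6 of the 15 libraries. The 5 epithelial markers summed to 4.58 to 7.43 CPM and 15.4 to 35.2 CPM, of which Krt14 made up most, while Krt5 and Epcam had 0 counts in 5 and 4 libraries, and 1 of the 2 tested passed. Of the markers of endothelial cells 0 of 2 passed, of macrophages 0 of 2 and of muscle 0 of 1 (edgeR), with 2, 0 and 1 at an unadjusted p under 0.05, and 4 of 9 fibroblast markers passed. Over the 18 libraries the fibroblast markers overlapped, at 7689 to 8443 CPM in numbers 1 to 3 and 6431 to 7843 CPM in numbers 4 to 6. In the 15 libraries they were at 7795 to 8443 CPM and 6837 to 7470 CPM. Fewer cells of a type and less RNA per cell cannot be told apart in such libraries. The part of these cells in the differences between numbers was not tested.

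The promoters are shown for the pairs of genes that moved together, Tgfb2 with Ltbp2 (Pearson r = 0.838 over the 15 libraries) and Ltbp3 with Ltbp4 (r = 0.890), while Tgfb2 and Ltbp4 moved apart (r = -0.772). These correlations describe libraries that share numbers, and carry no test. RefSeq windows of 300 bases on GRCm38.p6, with 250 before and 50 after the start of transcription, were at hand for 8 of the 10 genes. Tgfb3 and Tgfbr3 were not matched. Capitals mark the Smad box CAGAC and the GC box GGGCGG, each on either strand.
Tgfb2, GRCm38.p6 chr1:186705940-186706239, minus strand: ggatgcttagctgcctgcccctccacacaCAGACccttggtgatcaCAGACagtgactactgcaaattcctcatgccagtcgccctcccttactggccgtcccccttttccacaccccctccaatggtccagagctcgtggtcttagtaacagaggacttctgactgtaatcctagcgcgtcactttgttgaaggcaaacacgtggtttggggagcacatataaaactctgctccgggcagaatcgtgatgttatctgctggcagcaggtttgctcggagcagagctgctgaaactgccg
Ltbp2, GRCm38.p6 chr12:84876442-84876741, minus strand: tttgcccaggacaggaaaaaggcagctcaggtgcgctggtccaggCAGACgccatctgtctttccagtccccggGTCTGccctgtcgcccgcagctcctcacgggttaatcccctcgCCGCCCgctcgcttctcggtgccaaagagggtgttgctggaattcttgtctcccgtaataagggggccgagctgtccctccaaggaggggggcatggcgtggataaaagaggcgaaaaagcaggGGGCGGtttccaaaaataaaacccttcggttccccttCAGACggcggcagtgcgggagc
Ltbp3, GRCm38.p6 chr19:5740650-5740949, plus strand: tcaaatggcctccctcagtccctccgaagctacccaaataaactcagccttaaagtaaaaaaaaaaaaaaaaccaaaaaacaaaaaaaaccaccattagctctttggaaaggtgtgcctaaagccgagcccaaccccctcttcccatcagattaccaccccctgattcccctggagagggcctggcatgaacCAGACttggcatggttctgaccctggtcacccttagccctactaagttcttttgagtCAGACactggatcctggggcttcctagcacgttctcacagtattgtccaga
Ltbp4, GRCm38.p6 chr7:27337563-27337862, minus strand, the first of 3 windows listed: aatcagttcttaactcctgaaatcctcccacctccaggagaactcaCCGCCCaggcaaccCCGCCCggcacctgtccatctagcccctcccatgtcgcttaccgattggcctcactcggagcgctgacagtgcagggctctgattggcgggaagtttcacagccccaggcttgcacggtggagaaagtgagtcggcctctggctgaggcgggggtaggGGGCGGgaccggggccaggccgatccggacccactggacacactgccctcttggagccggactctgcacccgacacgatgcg

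The Smad box was found 2 times for Tgfb2, 3 times for Ltbp2, 2 times for Ltbp3 and not in this window of Ltbp4, and 49.6% of the 32851 windows of all genes held at least 1. The GC box was found 2 times for Ltbp2 and 3 times in this window of Ltbp4, and 35.7% of all windows held it. A TATA box (TATAAA) stood in the window of Tgfb2, as in 13.6% of all windows, and an AP-1 site (TGAGTCA) in that of Ltbp3, as in 5.20%. The palindromic cyclic AMP element TGACGTCA, present in 1.79% of all windows, stood in 1 of the 2 windows of Ltbp1, just before a Smad box. The site CATTCC, read by TEAD factors, was in none of the 12 windows of the 8 genes and in 14.7% of all. GC content was 54.3% for Tgfb2, 61.0% for Ltbp2, 48.0% for Ltbp3 and 64.3% for the window of Ltbp4 shown, beside a median of 52.7%. Windows 2 and 3 of Ltbp4, which share most of their bases, had 80.3% and 81.3%, with 7 and 9 GC boxes, overlapping matches included. Which start these cells use was not tested. A match describes the letters and not a bound factor.

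The genes whose log2 CPM was most like that of the 3 genes with the smallest p for number were sought among 13043 genes over the 15 libraries. For Tgfb2 they were Lox (r = 0.983), a crosslinker of collagen and elastin, the G protein regulator Rgs4 (0.980) and the cytoskeletal adaptor Sorbs2 (0.979). For Ltbp2 they were the actin-capping protein Capg (0.980), fibrillin-1 (Fbn1, 0.977) and integrin beta 5 (Itgb5, 0.977). For Ltbp4 they were the kinesin Kif21b (0.961), the transcription factor Myrf (0.945) and the co-chaperone Sgta (0.943). Lox had means of 1677 to 1777 CPM in numbers 1 to 3 and 1163 to 1382 CPM in numbers 4 to 6, and Fbn1 2568 to 2637 CPM and 1790 to 2044 CPM. These genes were picked for their likeness, and the libraries share numbers.

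Some genes of the pathway lists also differed between numbers. Past the threshold for number were 7 of 17 storage and activation genes, 6 of 26 signalling genes and 13 of 25 target genes, beside the 12.6% of all genes. These counts were 10, 8 and 18 in the 15 libraries, beside the 20.8% of all genes. Since the lists were chosen with earlier results of these data known, the counts describe these genes and are no test of the pathway. The 4 storage genes with the smallest p were the proteoglycan decorin (Dcn), integrin beta 3 (Itgb3), the protease Mmp2 and thrombospondin-1 (Thbs1), an activator of latent TGF-beta. Thbs1 had means of 9541, 10610 and 10237 CPM in numbers 1 to 3 and of 8025, 6869 and 8751 CPM in numbers 4 to 6. Dcn was lowest in number 3, at 65.4 CPM, and highest in number 5, at 209 CPM. Among signalling genes the 4 were the type I receptor Acvrl1, the co-repressors Tgif1 and Tgif2, and Skil, with Acvrl1 at 7.08 to 7.10 CPM in numbers 1 to 3 and 3.62 to 6.04 CPM in numbers 4 to 6.

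Among target genes the matrix genes elastin (Eln) and periostin (Postn) and the matricellular gene Ccn2 were among those with the smallest p. Postn was at 212, 209 and 179 CPM in numbers 1 to 3 and at 153, 99.1 and 80.0 CPM in numbers 4 to 6. Ccn2 was at 353, 660 and 597 CPM in numbers 1 to 3 and at 399.8, 306 and 661 CPM in numbers 4 to 6. Eln was at 19.1 to 31.3 CPM in numbers 1 to 5 and at 4.96 CPM in number 6, which is 1 library. Values of these genes are means over the 15 libraries.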

How the data were processed

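The authors deposited raw counts, whole read pairs per gene and library, without normalisation. The submitters' processing notes name FastQC, HISAT2, SAMtools 1.2 and HTSeq, and the build GRCh38, a human build, although the gene identifiers are mouse. The mouse build, annotation and strand setting are not given in the sources used here. Libraries were stranded and paired-end, with ribosomal RNA depleted. The 5 closing entries for uncounted pairs were kept out of library sizes (unaligned pairs were 1.72% to 54.2% of all pairs). All 18 columns matched a sample by title. Names, positions and exon lengths came from GENCODE M39 (GRCm39), which named 51731 of 55487 identifiers.

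Models were fitted with edgeR 4.0.16 in R 4.3.3 (filterByExpr on dose, TMM, robust quasi-likelihood fit, dose as the only term, 18 libraries), with Benjamini-Hochberg adjustment over all genes and a threshold of 0.05. The test of number added dose. Log2 CPM used a prior count of 2. A standard error is the size of a log2 fold change over the square root of its F. Exact permutation tests used all 924 splits (smallest p 0.00216). Alternatives used DESeq2 1.42.0, limma 3.58.1 and the settings of the closing section. Scripts were tested on simulated data.

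The 10 genes are always named. Of each list, genes past a dose threshold are named, otherwise the 2 with the smallest p at 30 µM, and the 4 with the smallest p for number (of the target list, 1 of these 4 is not reported here). Likeness names 3 genes for each of the 3 genes leading by number. Members and lists were chosen with earlier results of these data known.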

Additional observations from a re-analysis of the deposited data

Results flagged for a closer look

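Of the 30 sets of 6 libraries formed by the 10 genes and 3 doses, 8 held a library whose gap to its nearest neighbour was over 0.625 of the range (Dixon's 95% limit for 6 samples), where chance alone gives about 1 in 20. All 8 concerned the library with most unaligned pairs of its dose. Vehicle number 1 stood alone with Tgfb1 at 31.5 CPM (others 10.5 to 16.2), Tgfbr3 at 86.7 CPM (29.9 to 45.8), Ltbp3 at 227 CPM (106 to 134) and Tgfb3 at 112 CPM (196 to 228). The library of 30 µM number 6 stood alone with Ltbp3 at 408 CPM (107 to 137), Ltbp4 at 148 CPM (45.0 to 65.0) and Tgfb1 at 29.1 CPM (11.3 to 15.1). The library of 10 µM number 6 stood alone with Ltbp3 at 192 CPM (88.3 to 124). Tgfb2, Tgfbr1, Tgfbr2, Ltbp1 and Ltbp2 had no such library. The share of all genes with such a library was not counted, so the flags are not shown to be particular to the 10 genes. The share of unaligned pairs was high in the same 3 libraries, and its part was not tested.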

How the results depend on the processing

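The call that 0 of 10 genes passed in any dose test held under every setting run, among them DESeq2, voom with quality weights, other size factors, library totals, other filters, the replicate block, 16 and 15 libraries and each library left out. With 13865 genes tested and 6 libraries per dose, no gene was called in the main fit, so changes of the sizes seen here are not excluded. The spread in that fit includes the differences between numbers, which were not in the model.

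The sign of several log2 fold changes that were not called depended on the setting, and the cause was not tested. Positive and negative values opposite to those of the report were as follows. Without the 2 libraries with most unaligned pairs they were at 10 µM Tgfb1 0.021, Tgfb2 0.072, Tgfb3 -0.032, Tgfbr2 0.052, Tgfbr3 0.11, Ltbp1 0.013, Ltbp3 0.0068 and at 30 µM Tgfb2 0.031, Tgfb3 -0.0064, Tgfbr3 0.13, Ltbp3 -0.047, Ltbp4 -0.10. Without the 3 libraries they were at 10 µM Tgfb2 0.13, Tgfb3 -0.047, Tgfbr2 0.044, Tgfbr3 0.088 and at 30 µM Tgfb2 0.024, Tgfb3 -0.010, Tgfbr3 0.12, Ltbp3 -0.051, Ltbp4 -0.11. With voom they were at 10 µM Tgfb2 0.093, Tgfb3 -0.013, Tgfbr2 0.036, Tgfbr3 0.041 and at 30 µM Tgfb2 0.093, Tgfbr3 0.11, Ltbp3 -0.10, Ltbp4 -0.17. With library totals they were at 10 µM Tgfbr2 0.015, Ltbp1 0.0010, with no filter at 10 µM Tgfbr2 0.019, Ltbp1 0.0059, with DESeq2 at 10 µM Tgfbr2 0.0024 and with at least 10 counts in every library at 10 µM Tgfbr2 0.0011. Leaving out 1 library at a time, the values ranged at 10 µM Tgfb1 -0.31 to 0.018, Tgfb2 -0.23 to 0.069, Tgfb3 -0.037 to 0.13, Tgfbr1 -0.011 to 0.034, Tgfbr2 -0.036 to 0.047, Tgfbr3 -0.23 to 0.10, Ltbp1 -0.032 to 0.021, Ltbp2 -0.0063 to 0.10, Ltbp3 -0.36 to 0.0022 and at 30 µM Tgfb1 -0.25 to 0.21, Tgfb3 -0.011 to 0.16, Tgfbr3 -0.13 to 0.20, Ltbp3 -0.23 to 0.45, Ltbp4 -0.16 to 0.30. The ends that crossed 0 came mostly without vehicle number 1 or 30 µM number 6.

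The titles number the libraries 1 to 6 in every dose. Same-numbered libraries deviated together by over 0.1 in 16 of 18 pairs (lowest r = -0.101, highest 0.706), and 9 of 18 correlated best with their own number. The 2 pairs below 0.1 both held vehicle number 1. Among the 15 libraries 13 of 13 pairs were over 0.1 (0.101 to 0.595), and 8 correlated best with their own number. Since the labels tie the numbers to no culture and not every pair of the 18 passed, the numbers were not used as a block in the main test, and this rests on vehicle number 1. The replicate block called 0 of 10 genes in every dose test, also without the 2 or 3 libraries. With the block and without the 3, 2 of 10 had an unadjusted p under 0.05 at 10 µM (517 of all 13888 genes). For 30 µM against 10 µM it was 3 of 10 (672), and at 30 µM against vehicle 0 of 10 (604). Any difference among the doses and the slope had 2 of 10 each (535 and 722, all by edgeR). The values of opposite sign were at 10 µM Tgfbr2 0.00084 and at 30 µM Tgfbr3 0.0051 with the block, at 10 µM Tgfb1 0.051, Tgfb2 0.033, Tgfb3 -0.019, Tgfbr2 0.042, Tgfbr3 0.082, Ltbp1 0.0043, Ltbp2 -0.0083, Ltbp3 0.012 and at 30 µM Tgfb1 0.034, Tgfbr3 0.076 with the block and without the 2 libraries, and at 10 µM Tgfb3 -0.0024, Tgfbr1 -0.017, Ltbp2 -0.018 and at 30 µM Tgfbr3 0.0091, Ltbp3 -0.0087, Ltbp4 -0.048 with the block and without the 3. With the block and without the 3, Ltbp4 was at -0.24 ± 0.053 at 10 µM (unadjusted p = 0.00017, adjusted p = 1.00 by edgeR).

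The count of the 10 genes that differed between numbers, 2 in the report, was 5 with DESeq2 (21.6% of all genes), 6 with voom (43.0%), 1 with no filter (5.65%), 4 without the 2 libraries (23.6%) and 7 without the 3 libraries (20.8%), against 12.6% of all genes in the report. It was 1 to 4 with 1 library left out (9.08% to 25.0% of all genes), with 4 reached without vehicle number 1 (25.0%) or vehicle number 6 (23.3%). Without the 2 libraries 11 storage and 12 signalling genes passed for number, against 7 and 6, while the share of all genes went from 12.6% to 23.6%.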
